A study of Sus scrofa with 8 samples.

Results

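The genes of the signal transducer and activator of transcription (STAT) family were examined in RNA-seq libraries of porcine induced pluripotent stem cells (piPSCs) with and without overexpression of IRF-1, interferon regulatory factor 1. The members were the genes of the count table named STAT2, STAT3, STAT4, STAT5A, STAT5B or STAT6 in the pig Ensembl annotation, which gave 6 of 24358 genes. STAT proteins rest in the cytoplasm until a Janus kinase (JAK) bound to a cytokine receptor phosphorylates them, after which they dimerise, enter the nucleus and activate transcription. In pluripotent cells the family is best known through LIF, which acts on the receptor chains LIFR and IL6ST and thereby on STAT3, a factor that supports self-renewal of naive mouse embryonic stem cells. Interferons act through STAT2, growth hormone and several interleukins through STAT5A and STAT5B, IL4 and IL13 through STAT6, and IL12 through STAT4.

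The study asked how IRF-1 affects the expression profile of DOX-hLIF-2i piPSCs. Both groups came from such cells, which were made from porcine embryonic fibroblasts (PEFs) with an OCT4-tdTomato reporter by the doxycycline-inducible lentiviruses FUW-OSKM and FUW-M2rtTA. Per the methods they were kept in N2/B27 medium with doxycycline, human LIF, porcine LIF, CHIR99021 and PD0325901, whereas the sample labels name an LCDMV medium. The IRF-1 overexpressing cells received PB-CAG-IRF1-Flag, in which the CAG promoter drives a tagged IRF1 made from PEF cDNA, together with the plasmid PCAGPBase, and the control cells received PB-CAG-Flag. Puromycin was used to select both, and feeder cells were left behind by plating for 1 hour before RNA extraction. The overexpressing group held replicates 1 and 3, and the control group held replicates 6 and 8, as the study assigns them. The genotype label reads overexpression for all 4 libraries. Nothing says that the replicates came from separate cultures or cell lines, so p-values measure the spread between these libraries alone. By the methods, LIF, the ligand upstream of STAT3, was supplied to both groups, and the reprogramming factors remained inducible in both.

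The counts on genes summed to 24923319 and 20858333 in overexpressing replicates 1 and 3 and to 15925429 and 17097669 in control replicates 6 and 8. Levels are in CPM with TMM factors applied to the library sizes, and 3 counts, taken as the floor, correspond to between 0.121 and 0.192 CPM. IRF1 was read first as a check of the labels, and it was at 8206 and 5485 counts with overexpression and 55 and 56 without. The groups lay far apart in the direction of the study's assignment.

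Of the 6 STAT genes, 5 had enough counts to be tested. A gene was called when its adjusted p was under 0.05 and its log2 fold change was at least 1 in size. By this rule 1 STAT gene, STAT3, was higher in the overexpressing cells, beside 8.61% of all 13250 tested genes, and 1 STAT gene, STAT6, was lower, beside 10.6% of all tested genes. STAT2, STAT5A and STAT5B were not called. Among 5 genes, 1 call in each direction is close to the background, and it is no result about the family as a whole. In bulk RNA, fewer cells that express a gene and less RNA of it per cell cannot be told apart.

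STAT3 (ENSSSCG00000017403) carries the LIF and IL6 signal and is encoded on the plus strand of chromosome 12, from 20407189 to 20472993, in 22 exon blocks. It was counted at 105 CPM in overexpressing replicate 1 and 84.9 CPM in overexpressing replicate 3, against 49.3 and 45.1 CPM in control replicates 6 and 8. Both overexpressing libraries lay above both controls, and the gap between the groups was wider than the gap between the replicates of either. The mean was 94.7 ± 13.9 CPM against 47.2 ± 3.0 CPM (SD over 2 libraries each), a log2 fold change of 1.00 (SE, the standard error, 0.16, 95% interval from 0.64 to 1.37, Benjamini-Hochberg adjusted p = 0.00329 by edgeR's quasi-likelihood test). STAT3 rose 2.01-fold, which places it right at the minimum fold change of the rule. The call was therefore lost where the estimate dropped slightly, at 0.86 without overexpressing replicate 1, at 0.95 without control replicate 8 and just under 1 with library size alone, and also when the fold change was tested against the minimum with glmTreat. The adjusted p from edgeR was 0.0325 without overexpressing replicate 1 and 0.00208 without control replicate 8, within a range from 3.40e-06 to 1.00 over all 14 alternatives, the highest under glmTreat.

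STAT5A and STAT5B are close paralogs that act downstream of growth hormone, prolactin, erythropoietin and IL2 family cytokines. STAT5B (ENSSSCG00000017406) lies on the plus strand of chromosome 12, from 20498096 to 20574353, in 21 exon blocks. Its level was 63.2 and 63.4 CPM in overexpressing replicates 1 and 3 and 65.5 and 59.3 CPM in control replicates 6 and 8. The overexpressing values fell between those of the controls, so the groups overlapped. The log2 fold change was 0.020 (adjusted p = 0.933 by edgeR's quasi-likelihood test, SE 0.14), and its 95% interval from -0.30 to 0.34 leaves room for no change as large as the minimum of the rule in either direction.

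STAT5A (ENSSSCG00000017402) lies between STAT3 and STAT5B on the minus strand, from 20472037 to 20499166, in 20 exon blocks. It was counted at 14.7 and 17.4 CPM in overexpressing replicates 1 and 3 and at 23.8 and 16.6 CPM in control replicates 6 and 8. The groups overlapped, and control replicate 6 stood above the other 3 libraries. The log2 fold change was -0.33 (adjusted p = 0.337 by edgeR's quasi-likelihood test, SE 0.24, 95% interval from -0.88 to 0.22). Leaving out control replicate 6 gave -0.053 and leaving out control replicate 8 gave -0.56, so its size depended on which control was used.

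STAT2 (ENSSSCG00000000396) joins IRF9 in ISGF3, the complex that turns on interferon-stimulated genes after type I and type III interferon. It lies on the minus strand of chromosome 5, from 21733030 to 21751354, in 25 exon blocks. The level was 18.9 and 19.6 CPM in overexpressing replicates 1 and 3 and 20.5 and 19.7 CPM in control replicates 6 and 8. All 4 libraries lay close together, with the lower control only just above the higher overexpressing library. The log2 fold change was -0.063 (adjusted p = 0.829 by edgeR's quasi-likelihood test, SE 0.18, 95% interval from -0.49 to 0.36).

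STAT6 (ENSSSCG00000040435), the factor of IL4 and IL13 signalling, lies on the minus strand of the same chromosome, from 22406136 to 22422398, in 24 exon blocks and 654781 bases beyond STAT2. It was counted at 5.84 CPM in overexpressing replicate 1 and 5.34 CPM in overexpressing replicate 3, against 26.3 and 17.7 CPM in control replicates 6 and 8. The overexpressing libraries were nearly equal and low, the controls were high and farther from each other, and the groups did not overlap. STAT6 fell to 5.59 ± 0.354 CPM from 22.0 ± 6.07 CPM in the controls (SD over 2 libraries each), a log2 fold change of -1.98 (SE 0.27, 95% interval from -2.59 to -1.36, Benjamini-Hochberg adjusted p = 0.00173 by edgeR's quasi-likelihood test). This call held under all 14 alternatives, with estimates from -2.22 without control replicate 8 to -1.67 without control replicate 6.

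STAT4 (ENSSSCG00000016059), which in T cells and natural killer cells relays IL12, lies on the minus strand of chromosome 15, from 95656077 to 95763523, in 25 exon blocks. It had 4 and 1 counts in overexpressing replicates 1 and 3 and 3 and 0 counts in control replicates 6 and 8. These counts are at or next to the floor in every library, so STAT4 was not tested and no fold change is given. Its exons share no base with another gene of the table. Of 15 marker genes of haematopoietic and lymphoid cells with an identifier, 11 were at or under 3 counts in each of the 4 libraries, and CD3E, LCK, MS4A1 and LYZ had no count in any of them. The summed level of these markers was 4.47 and 5.53 CPM in overexpressing replicates 1 and 3 and 6.46 and 4.40 CPM in control replicates 6 and 8, with SPI1 the most abundant per length.

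Several STAT genes share exon bases with their neighbours, which bears on how their counts are read. Over the whole table, 185 genes have every exon base inside exons of genes on the opposite strand, and 184 of them had no count in any library, while the other summed to 39. No count was found for any of 160 genes wholly inside exons of genes on the same strand, whereas 30.1% of 19039 genes that share no base were without a count. Reads on shared exon bases were thus counted for neither gene, whichever the strand. STAT6 shares 2262 bases, 50.4% of its exon length of 4487 bases, with NAB2 on the opposite strand in 8 blocks, which leaves 2225 bases behind its counts. STAT2 shares 2190 bases (38.8%) with PAN2 on the same strand in 22 blocks and 596 bases (10.6%) with IL23A on the opposite strand, which leaves 2855 of 5641 bases. The last exon of STAT3 shares 957 bases, from 20472037 to 20472993, with that of STAT5A on the opposite strand (11.6% and 14.5% of their exon lengths), and STAT5A shares 31 bases with STAT5B. Since the counting did not separate strands, antisense transcripts over the remaining bases cannot be told apart from the STAT genes.

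**Figure D1:**
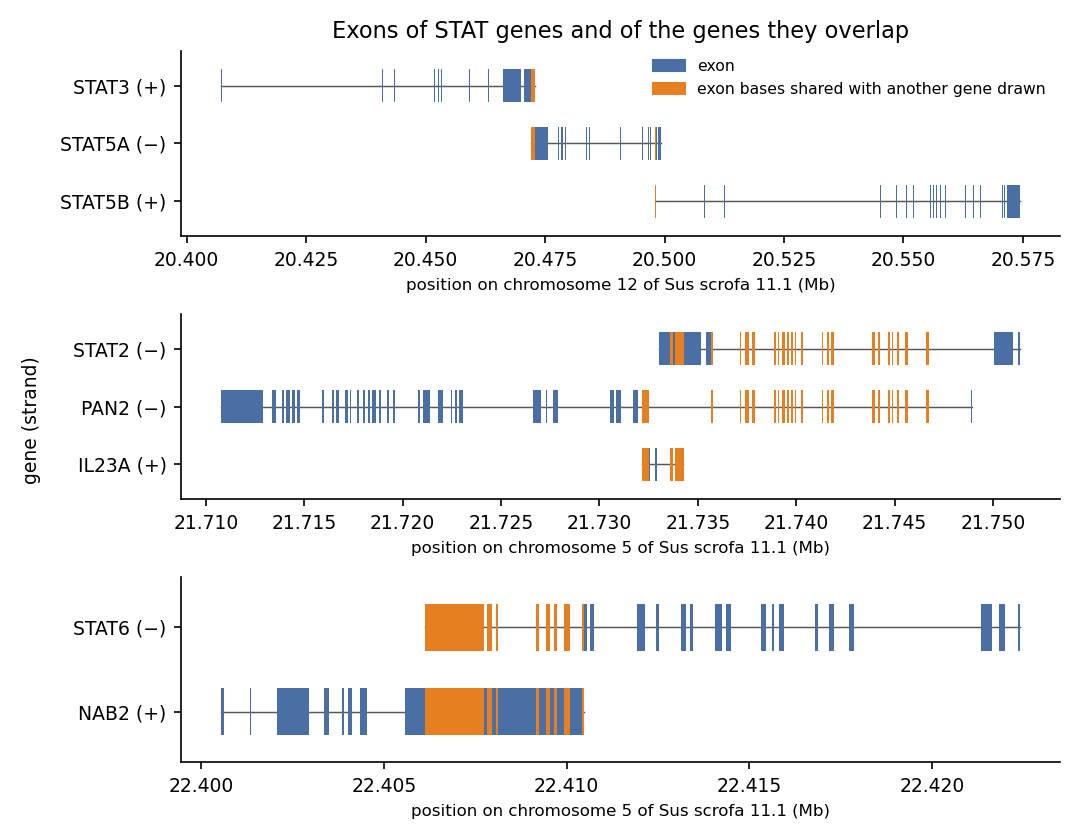
Exon blocks (boxes) of the STAT genes that share exon bases and of the genes they share them with, by position in Mb, with the strand in parentheses and shared bases in orange. Of the exon bases of STAT3 11.6% but of those of STAT6 50.4% lie in exons of another gene.

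The neighbours' own counts were read beside those of the STAT genes. NAB2, which encodes a corepressor of EGR proteins, had 10.2 and 9.47 CPM with overexpression and 19.5 and 18.2 CPM without. Its log2 fold change of -0.94 (adjusted p = 0.0130 by edgeR's quasi-likelihood test, SE 0.21) was under the minimum of the rule, so it was not called. The ratio of STAT6 to NAB2 in CPM was 0.573 and 0.563 in overexpressing replicates 1 and 3 and 1.35 and 0.975 in control replicates 6 and 8, so STAT6 was also lower relative to its neighbour in both overexpressing libraries. PAN2, which encodes a subunit of a deadenylase, had a log2 fold change of -0.34 (adjusted p = 0.0938 by edgeR's quasi-likelihood test), and IL23A had no count in any library.

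Levels of different STAT genes can be set against each other only per length. Per kb of exon length, the mean level in the controls was 12 ± 0.849 CPM for STAT5B, 5.74 ± 0.364 for STAT3, 4.91 ± 1.35 for STAT6, 3.56 ± 0.0948 for STAT2, 3.05 ± 0.766 for STAT5A and 0.0347 ± 0.0491 for STAT4 (SD, n = 2). By this length alone STAT5B stood clear of the rest, and STAT4 was far below it. STAT3 and STAT6, and STAT2 and STAT5A, lay within their spread by the same length. In the overexpressing cells the order was STAT5B at 12.2 ± 0.0283 CPM per kb, STAT3 at 11.5 ± 1.69, STAT2 at 3.41 ± 0.0923, STAT5A at 2.43 ± 0.285, STAT6 at 1.24 ± 0.0788 and STAT4 at 0.0378 ± 0.0289 (SD, n = 2). STAT3 had drawn level with STAT5B within the spread, and STAT6 stood below STAT5A. The ratio of STAT3 to STAT5B per length was 1.05 and 0.848 in overexpressing replicates 1 and 3 against 0.476 and 0.481 in control replicates 6 and 8. STAT5B exceeded its paralog STAT5A between 3.50-fold and 5.46-fold in each library.

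STAT3 made up 40.0% and 34.6% of the summed level per length of the 6 genes in overexpressing replicates 1 and 3, and 18.9% and 20.4% in control replicates 6 and 8. By the full exon length STAT6 made up 4.09% and 3.99% with overexpression and 18.5% and 14.7% without. The sum itself was 31.8 and 29.8 CPM per kb with overexpression and 31.8 and 26.8 without, so the groups overlapped in the total while the shares of STAT3 and STAT6 did not overlap. The unshared exon bases were also used as the length, a choice made after seeing the data. The mean level in the controls was then 9.89 CPM per kb for STAT6, 7.04 for STAT2 and 6.50 for STAT3. STAT5B had the highest mean, 12.1, but at 12.7 and 11.5 in control replicates 6 and 8 it overlapped STAT6. Both close pairs came apart by this length, with STAT6 at 11.8 and 7.97 CPM per kb against STAT3 at 6.79 and 6.21, and STAT2 at 7.17 and 6.91 against STAT5A at 4.23 and 2.95, in control replicates 6 and 8. By that length STAT3 moved from the fourth place in the controls to the first in the overexpressing cells, at 13.0 CPM per kb beside STAT5B at 12.2, which did not differ beyond the spread. By the mean, STAT6 moved from the second place to the fifth, at 2.51 CPM per kb. In overexpressing replicate 1 it was level with STAT5A, both at 2.62 CPM per kb, and in replicate 3 it was at 2.40 against 3.09. The share of STAT6 in the sum by that length was larger, 6.81% and 6.61% in overexpressing replicates 1 and 3 against 27.7% and 22.4% in control replicates 6 and 8. That of STAT3 was 37.4% and 32.2% against 15.9% and 17.5%.

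**Figure D2:**
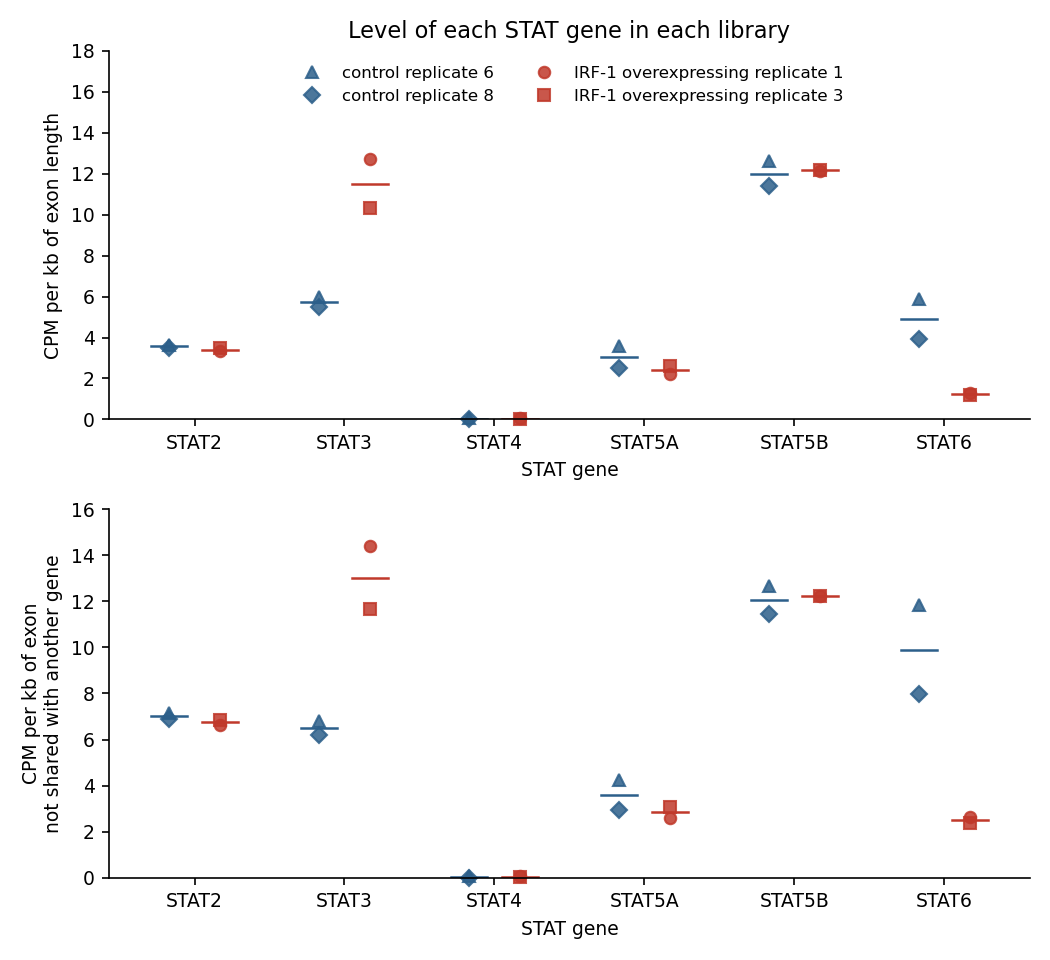
Level of each STAT gene in each library (points) and the group mean (lines), in CPM per kb of exon length (upper panel) and per kb of exon not shared with another gene (lower panel). In the upper panel STAT3 lies at 12.7 and 10.3 in the overexpressing libraries against 6.0 and 5.48 in the controls, and STAT6 at 1.30 and 1.19 against 5.86 and 3.95.

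Profiles over the 4 libraries were compared by the root mean square difference of log2 CPM centred on each gene's mean, over 9130 named genes that averaged 5 CPM or more. The nearest to STAT3 were EEF2K, which encodes a kinase of elongation factor 2, at 0.020, IFNAR1, a chain of the type I interferon receptor, at 0.020, and TTC39A at 0.026. The nearest to STAT6 were RAB31, a small GTPase of vesicle transport, at 0.037, the lipid flippase gene ATP8B3 at 0.040 and TBC1D10C at 0.055. With 4 libraries in 2 groups such a profile is mostly the fold change, and it says little beyond that.

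The lists below are described by their called genes, to be read beside 8.61% called higher and 10.6% called lower among all tested genes, and no difference between lists was tested. Upstream of the STAT proteins, 1 of the 4 JAK genes was called higher and 1 lower, and without overexpressing replicate 1 the number called lower was 0. So few genes say nothing about the kinases as a group. JAK1, which partners IL6ST, LIFR and the interferon and IL4 receptors, had 41.4 and 31.2 CPM in the overexpressing libraries against 9.98 and 8.86 CPM in the controls. It rose by a log2 fold change of 1.95, and was called under all 14 alternatives. JAK3, the kinase of the common gamma chain that feeds STAT5 and STAT6, was at 0 and 4 counts with overexpression and 39 and 20 without. The pooled controls exceeded the overexpressing libraries 20.3-fold (95% counting interval from 7.53 to 77.1), and the adjusted p from edgeR's test was 0.0132 but 0.0646 without overexpressing replicate 1, within a range from 4.91e-05 to 0.0646 over the alternatives. Its log2 fold change of -4.25 was -3.18 without overexpressing replicate 1 and -3.60 without control replicate 6. Without overexpressing replicate 3 no count remains in that group, and the controls were at least 15.1-fold higher against the floor. JAK2 had a log2 fold change of 0.092 (adjusted p = 0.838 by edgeR's quasi-likelihood test), which was -0.23 without control replicate 6. TYK2, the JAK with the highest level per length at 22.4 CPM per kb in the overexpressing cells and 16.1 in the controls, had 0.47 (adjusted p = 0.0504 by edgeR's quasi-likelihood test).

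The receptors that lead to STAT3 did not move one way. IL6ST, the signalling chain shared by the LIF and IL6 family, had a log2 fold change of 0.024, with 120 and 103 CPM with overexpression and 110 and 109 CPM without. Of 9 tested genes of the family, 4 were called higher and 2 lower, beside 8.61% and 10.6% of all tested genes, and the median log2 fold change was 0.024 beside -0.0016. The number called higher was 2 without overexpressing replicate 1 and with glmTreat, and the number called lower was 1 with glmTreat, where IL27RA lost its call, and 3 without overexpressing replicate 3. The chains called higher were LEPR (2.99), IL6R (2.42), OSMR (2.00) and LIFR (1.38). LEPR was 2.37 without overexpressing replicate 1, where OSMR (1.77) and LIFR (1.06) lost the call. CNTFR, the binding chain for CNTF, and IL27RA were called lower, at -2.97 and -1.33. CNTFR fell to 12.9 ± 5.73 CPM from 101 ± 28.4 CPM in the controls (SD over 2 libraries each), and IL27RA shares 59.5% of its exon bases with PALM3. IL11RA was not called (-0.68), and the ligand gene LIF was at 4 and 17 counts with overexpression and 22 and 24 without.

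**Figure D3:**
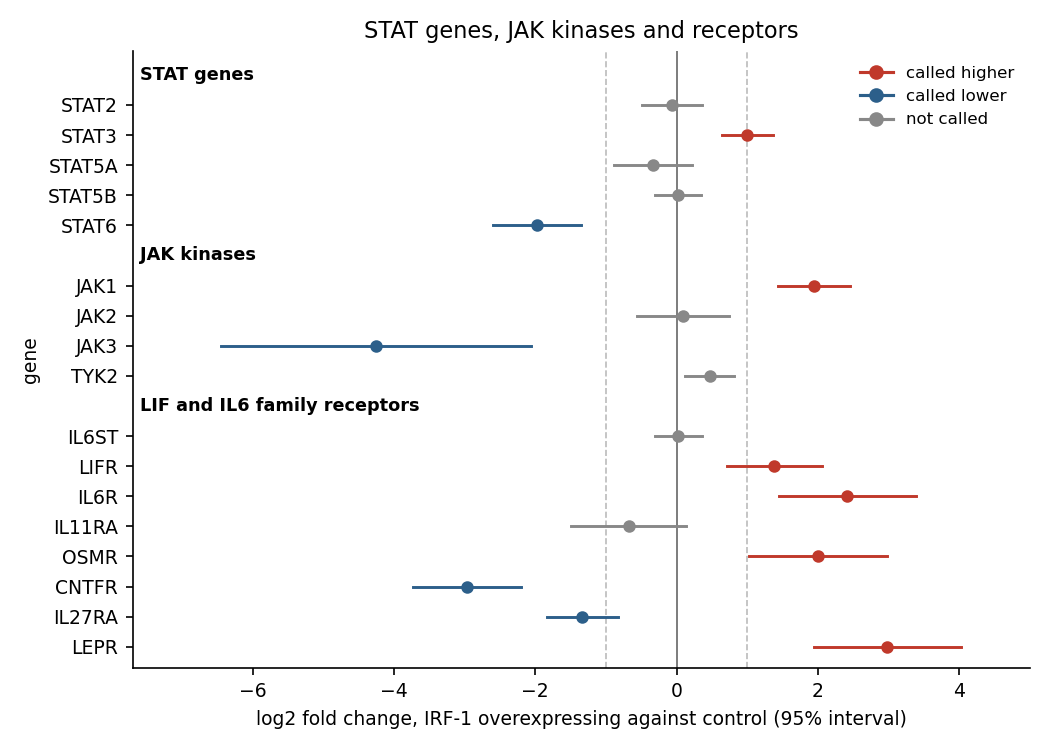
Log2 fold change of the tested STAT genes, the JAK kinases and the receptor chains of the LIF and IL6 family in IRF-1 overexpressing against control cells (points) with its 95% interval (lines), coloured by call, with dashed lines at the minimum fold change. STAT3 sits on the dashed line at 1.00, STAT6 beyond the other at -1.98, and STAT2 and STAT5B at -0.063 and 0.020.

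Of 18 receptor genes upstream of STAT4, STAT5 and STAT6, 8 were tested and 7 were at or under 3 counts in each library, among them IL12RB1 and IL23R, which activate STAT4. Another of the 7 is EPOR, upstream of STAT5, which shares 85.2% of its exon bases with SWSAP1, so its low count does not show absence. Of the 8 tested, 3 were called higher and 2 lower (8.61% and 10.6% over all tested genes), with a median of -0.40. Upstream of STAT6, IL4R had 2.62 and 2.26 CPM with overexpression and 9.73 and 5.55 CPM without, a log2 fold change of -1.64, and was thus lower together with STAT6. The call of IL4R was lost without either overexpressing library (-1.74 and -1.53), without control replicate 6 (-1.18) and with glmTreat. IL13RA1, its partner in the receptor for IL13, rose instead, by 1.58 on the log2 scale, with a call that was lost with glmTreat. Upstream of STAT5, KIT rose (2.26), and GHR was at 4 and 1 counts with overexpression and 13 and 22 without. The call of GHR (-3.20) was lost without overexpressing replicate 1 (-4.25), overexpressing replicate 3 (-2.65) or control replicate 8 (-2.86), and with glmTreat. IL12RB2, upstream of STAT4, had 40 and 19 counts against 3 and 6. Its call (2.20) was lost with any library left out (from 1.74 to 2.70), with DESeq2 and with glmTreat. Of 4 tested interferon receptor genes, IFNAR1, upstream of STAT2, was called higher at 1.02, which was 0.85 without overexpressing replicate 1 and 0.98 without control replicate 8. With glmTreat this call was lost. IFNLR1 had 0 and 2 counts against 9 and 10, and its lower call (-3.52) was lost without overexpressing replicate 1 (-2.48), with DESeq2 and with glmTreat, and the gene did not pass the filter at 10 counts. Without overexpressing replicate 3 the controls were at least 4.75-fold higher against the floor, and without either control IFNLR1 was not tested.

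Among the inhibitors of STAT signalling, 2 of 15 tested genes of the SOCS, PIAS and phosphatase list were called higher and 0 lower by edgeR, with a median log2 fold change of 0.010. Beside 8.61% of all tested genes, 2 of 15 is near the background, and the number was 1 with glmTreat. With no minimum fold change 4 were higher and 2 lower, beside 1842 higher and 2054 lower of all 13250 tested genes. SOCS1, which blocks JAK activity, rose to 28.4 ± 0.303 CPM from 11.9 ± 0.0541 CPM in the controls (SD over 2 libraries each), a log2 fold change of 1.25. SOCS3, the feedback inhibitor on IL6ST and a target of STAT3, had 15.2 and 15.6 CPM with overexpression and 22.0 and 8.63 CPM without. Its overexpressing values lay between the controls, and the log2 fold change was 0.010. PTPRT, a phosphatase that can act on STAT3, was at 104 and 79 counts with overexpression and 1 and 0 without, a ratio of 133 with a 95% counting interval from 23.5 to 5272. Its log2 fold change of 6.77 became 5.84 when control replicate 8 was left out. Without control replicate 6 no control count remains, and the ratio was at least 23.3-fold against the floor. Of 11 tested cofactors of STAT proteins, 1 was called higher and 0 lower by edgeR, with a median of 0.21, which is about the background of 8.61%. The called gene was NMI, an interferon-inducible protein that binds STAT proteins, which rose to 59.0 ± 6.56 CPM from 4.22 ± 1.36 CPM in the controls (SD over 2 libraries each).

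The genes downstream were described by lists of known targets. Of 21 tested STAT3 targets, 1 was called higher, 6 lower and 14 neither, beside 8.61% higher and 10.6% lower of all tested genes. Their median was -0.40 on the log2 scale. The number called lower was between 2 and 7 with each library left out and 1 with glmTreat. OSMR was the one called higher, and BCL2L1 (-1.63), TIMP1 (-1.02), MYC (-2.23), CEBPD (-1.78) and KLF5 (-1.93) were among those called lower. MYC is also a factor of the inducible OSKM vector, and whether reads from the vector were counted on it was not tested. In control replicate 6, 17 of the 21 STAT3 targets stood above control replicate 8, with a median difference of 0.55 on the log2 scale, beside 52.7% of all tested genes with a median of 0.022. FOS, named after its values were seen, had 5777 counts in control replicate 6 and 33 in control replicate 8. The calls of MYC (-1.48) and TIMP1 (-0.72) were lost without control replicate 6, and those of KLF5 (-1.51) and CEBPD (-1.88) without control replicate 8. Without overexpressing replicate 1, MYC (-1.86), KLF5 (-1.54) and CEBPD (-1.91) lost the call, as did TIMP1 (-0.99), KLF5 (-2.38) and CEBPD (-1.65) without overexpressing replicate 3. CEBPD also lost it without control replicate 6 (-1.68). CEBPD and KLF5 lost the call with DESeq2, and TIMP1 lost it with limma-voom (-0.99). BCL2L1 was called with each library left out, and it shares 24.4% of its exon bases with ID1.

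Of 12 tested STAT5 targets, SPRED2 was called higher (1.63), BCL2L1 and MYC lower, and the median was -0.23. Here 10 of the 12 stood higher in control replicate 6 than in control replicate 8. Most of the 12, BCL2L1 and MYC among them, are also in the list of STAT3 targets, so the lists are not independent. Of 7 tested STAT6 targets, SOCS1 and TGM2 were called higher and IL4R lower, with a median of 0.066. In this list 6 of 7 stood higher in control replicate 6 than in the other control, by a median of 0.80 on the log2 scale. TGM2 was at 72 and 107 counts with overexpression and 8 and 4 without, a log2 fold change of 3.43 that was 4.09 without control replicate 6. Of 6 tested STAT4 targets, 2 were called higher, IL12RB2 and GADD45G, both at no more than 6 counts in a control library, and IFNG, TBX21 and IL18RAP were at or under 1 count in every library. GADD45G lost its call (2.94) without overexpressing replicate 1 (2.80), overexpressing replicate 3 (3.05) or control replicate 8 (1.92), and with DESeq2 and glmTreat. Without control replicate 6 no control count remains, and the gene was at least 4.31-fold higher against the floor.

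In the list of ISGF3 targets, where STAT2 acts, 20 of 29 tested genes were called higher and 1 lower, beside 8.61% and 10.6% of all tested genes, with a median log2 fold change of 1.75, which was also 1.75 with the 2 genes without a control count set at their bound. Within the groups, 25 of the 29 were higher in overexpressing replicate 1 than in replicate 3 (median 0.31), beside 49.6% of all tested genes (median -0.0019), and 22 in control replicate 6 than in replicate 8 (median 0.35), beside 52.7%. STAT2 itself had the value of -0.063 given above. The list is named after the complex, but IRF-1 is itself a regulator of the interferon system. Whether ISGF3 or the overexpressed IRF-1 acted on these genes was not tested. PARP12 (5.94), IFIH1 (3.84), CMPK2 (3.25) and HERC6 (2.44) rose, SAMD9 was at least 71.8-fold higher against the floor of 3 counts in each control library, and PARP14 had 1370 and 774 counts against 2 and 0. PARP12 was 6.75 without control replicate 6, and PARP14 (9.43) became 8.44 when control replicate 8 was left out. Without control replicate 6 no control count of PARP14 remains, and it was at least 269-fold higher against the floor. The partner of STAT2 in the complex, IRF9, was at 0 and 9 counts with overexpression and 1 and 3 without. It was not tested, and 85.2% of its exon bases lie in exons of REC8 on the same strand, so its counts rest on the remainder.

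Markers of other cells were read beside these values. The pluripotency markers had a summed level of 1313 and 1348 CPM with overexpression and 1544 and 1709 CPM without. DNMT3B, which was not called, made up much of this sum, at 1035 and 1006 CPM against 694 and 997 CPM. The sum was lower with overexpression although DNMT3B was not. LIN28A, called lower, had 164 and 186 CPM against 506 and 382 CPM. CDH1 and ESRRB were also called lower. CDH1 had 25.4 and 74.0 CPM against 240 and 232 CPM, and ESRRB had 1.25 and 1.78 CPM against 32.1 and 23.0 CPM. Of 6 tested, 3 were called lower and 0 higher by edgeR, with a median log2 fold change of -0.57, NANOG had between 5 and 11 counts in a library, and PRDM14 had none. Of 8 tested fibroblast markers, 5 were called lower and 1 higher, with a median log2 fold change of -1.72. Their summed level, 1202 and 982 CPM against 1419 and 1251 CPM, is carried by VIM, which alone had 1035 and 855 CPM against 1105 and 1073 CPM. Of 6 tested trophoblast genes, 4 were called lower and 1 higher, with a median of -2.96, and the summed level, mostly of KRT8, was 309 and 1157 CPM in overexpressing replicates 1 and 3 against 15600 and 9555 CPM in control replicates 6 and 8. CDX2 and HAND1 had no count in any library. The part of these marker genes in the values of STAT3 and STAT6 was not tested.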

How the data were processed

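RNA-seq of 4 libraries was used, and the ChIP-seq libraries were not used here. The deposited table of the authors gives integer counts for each Ensembl gene and, beside them, each gene's exon length in bases, an annotation value of another kind. Per the methods and the submitters' notes, reads were mapped to Sus scrofa 11.1 with HISAT2 (2.0.4) and counted with featureCounts (1.6.4). The strand setting and the treatment of reads on overlapping genes are not given in the sources used here, so both were read from the counts of wholly overlapped genes. Of 24358 identifiers, 14692 were given a symbol.

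Counts were tested with edgeR 4.0.16 in R 4.3.3 (TMM, filterByExpr by group, quasi-likelihood test, Benjamini-Hochberg adjustment over 13250 genes). For 1 gene in 2 plus 2 libraries, exact permutation cannot reach a two-sided p below 0.333, and smaller p values depend on variance that edgeR pools between genes. Standard errors are the log2 fold change divided by the square root of F, and intervals are at 95%. Counting intervals (exact binomial) and floors cover counting error only. The fit was tested on simulated counts, and tables were made with Python 3.11.15 and pandas 2.3.3.

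The STAT genes, the 11 pathway lists and the 4 marker lists were chosen with earlier results of these data known. The genes named are IRF1, the STAT genes, genes that overlap them, the JAK kinases and the LIF and IL6 family receptors, up to 6 called genes of each pathway list by smallest adjusted p, and the 3 nearest profiles to each called STAT gene. FOS, SOCS3, LIF, IRF9, EPOR, the untested receptors and targets and the marker genes were named after their values were seen. Some single-gene results are left out of this text. The alternatives were other normalizations, filters, tests (DESeq2 1.42.0, limma-voom with limma 3.58.1, glmTreat) and thresholds, the counts without mitochondrial genes and the 10 highest genes, each library left out in turn, and another length.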

Additional observations from a re-analysis of the deposited data

How the results depend on the processing

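The 14 alternatives in the test were run on all genes. STAT6 was called lower under each of them. STAT2 and STAT5A kept their sign and were not called under any. STAT3 kept its direction under all 14 and its call under 10: the log2 fold change was 1.00 with library size alone (just under the minimum) and 1.00 with glmTreat, and from 0.86 to 1.15 with each library left out, so the number of STAT genes called higher was 0 under these settings and 0 to 1 with each library left out. STAT5B ranged from -0.043 to 0.092 with each library left out and was -0.043, the opposite sign, without control replicate 8. With each library left out, JAK2 ran from -0.23 (without control replicate 6) to 0.52 and IL6ST from -0.072 (without overexpressing replicate 1) to 0.13. The cause was not tested. Over all genes, 1141 were called higher and 1410 lower. These counts were 611 and 603 with glmTreat, and 1842 and 2054 with no minimum fold change, which follows from the stricter and the looser threshold. With each library left out they ran from 756 to 1156 and from 874 to 1548. For the 39 other named genes, 489 of 543 values kept the direction and the side of the threshold and 51 lost the call. Of 308 counts of called list members, 250 were within 1.5 times the reported count. With unshared exon bases as the length, chosen after seeing the data, the level per kb in the overexpressing cells and the controls was 6.74 and 7.04 CPM for STAT2, 13.0 and 6.50 for STAT3, 2.85 and 3.59 for STAT5A, 12.2 and 12.1 for STAT5B, and 2.51 and 9.89 for STAT6, and the fold changes are not touched by it. The level per coding length of the RefSeq protein was not run, because no protein sequences or lengths were available. When a library was left out, the lone library of its group was assumed to vary like those of the other group. With 2 libraries per group, a change smaller than the intervals given was not detectable.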
